A study of Rattus norvegicus with 6 samples.

Results

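Cxcl9, Cxcl10 and Cxcl11 encode the 3 chemokines that act on the receptor CXCR3, and Cxcr3 encodes that receptor. Their transcripts were measured in kidney cortex, with 1 Agilent single-colour oligonucleotide array per animal. The animals were male rats of the Sprague-Dawley strain, 5 weeks old when purchased. The NDMA group (n = 3) received 4 mg/kg/day of N-nitrosodimethylamine over 4 weeks. This nitrosamine is turned by liver enzymes into an agent that alkylates DNA. The water group (n = 3) was given water for the same 4 weeks. Members were the probes annotated with a RefSeq transcript of these 4 genes, which gave 1 probe per gene and 4 genes among 31915 measured features (genes, or transcripts without a gene name). The genes were picked because of how they differed between NDMA and water in these same arrays, so their values are described without a test. Each group consists of whole pieces of cortex, so a change in the number of cells of a type and a change of RNA per cell cannot be told apart.

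CXCL9, CXCL10 and CXCL11 are small secreted CXC chemokines that lack the glutamate-leucine-arginine motif of the neutrophil-attracting members of the family. Their genes are induced by interferon gamma, with IRF1 among the factors involved, and CXCL10 and CXCL11 also respond to type I interferon and to tumour necrosis factor through NF-kappaB. CXCR3 is a receptor coupled to inhibitory G proteins and is carried mainly by activated T cells, natural killer cells and some dendritic cells. In inflamed kidney, tubular epithelium, endothelium and macrophages are known sources of these ligands.

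The arrays were alike in detection and in correlation, but not in brightness. Between 43016 and 46248 of 61657 probes were well above background, and the Pearson correlation across features, which are not independent replicates, was 0.985 to 0.990 between groups and 0.992 to 0.995 within groups. NDMA rats 2 and 3 were hybridised on slide 2, and that slide was scanned on a different day, whereas NDMA rat 1 and the 3 water rats shared slide 1, so the only comparison within a slide rests on NDMA rat 1. The 75th percentile of the signal was 1310 and 1299 in NDMA rats 2 and 3. It was 1053 in NDMA rat 1 and 993 to 1045 in the water rats. At the spots of the 4 genes the median background was 55 to 62 on slide 2 and 35 to 45 on slide 1. Of cortex markers, 8 of 8 proximal tubule genes and 5 of 5 podocyte genes were measured. So were 5 of 5 collecting duct and 2 of 2 inner medulla genes, so detection does not tell cortex from other parts of kidney. The replicates are separate animals per the series' design text.

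Cxcl9 had by far the largest difference of the 4 genes. Signals are given as normalised log2 values, the log2 of the background-corrected probe signal over the 75th percentile of its array, and levels of different probes are not compared. The Cxcl9 signal was 1.44, 1.30 and 1.78 in NDMA rats 1 to 3, against -4.45, -3.83 and -4.92 in water rats 1 to 3. Every NDMA rat lay far above every water rat, with a gap of 5.13 between the lowest NDMA value and the highest water value. The group means were 1.51 ± 0.24 for NDMA and -4.40 ± 0.55 for water (SD, n = 3 each), a log2 difference of 5.91 ± 0.28 (SE), or 60.1-fold. In unscaled intensity the spot gave 2862 to 4448 units in NDMA rats and 33.9 to 69.8 in water rats. The water values were dim but were well above background on all 3 arrays, and with normexp background correction, which adds an offset to every spot, the difference was 4.46.

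Cxcl10 was high in all NDMA rats at nearly the same level. Its signal was 3.31, 3.46 and 3.13 in NDMA rats 1 to 3, against -0.38, -0.17 and -0.67 in water rats 1 to 3. The NDMA values spanned 1.25-fold and the water values 1.41-fold, and the groups were separated by at least 9.91-fold. The means were 3.30 ± 0.16 for NDMA and -0.41 ± 0.25 for water (SD, n = 3 each), a difference of 3.71 ± 0.15 (SE), or 13.1-fold. With normexp the difference was 3.63.

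Cxcl11 differed less than the other ligands. Its signal was 1.13, 1.52 and 1.69 in NDMA rats 1 to 3, against -0.42, -0.69 and -0.64 in water rats 1 to 3. The groups did not overlap, and the lowest NDMA rat, number 1, was the one on the slide of the water rats. The means were 1.44 ± 0.29 for NDMA and -0.58 ± 0.14 for water (SD, n = 3 each), a difference of 2.02 ± 0.16 (SE), or 4.07-fold. Within slide 1 the difference was 1.71, or 3.27-fold, from NDMA rat 1 alone.

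The receptor gene Cxcr3 was higher as well. Its signal was -0.99, -1.11 and -0.72 in NDMA rats 1 to 3, against -2.74, -2.62 and -3.14 in water rats 1 to 3. Again no water rat reached the NDMA rats, with a gap of 1.51 between the closest pair. The means were -0.94 ± 0.20 for NDMA and -2.83 ± 0.27 for water (SD, n = 3 each), a difference of 1.89 ± 0.17 (SE), or 3.71-fold. With normexp, which shrinks dim probes, it was 1.31.

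**Figure D1:**
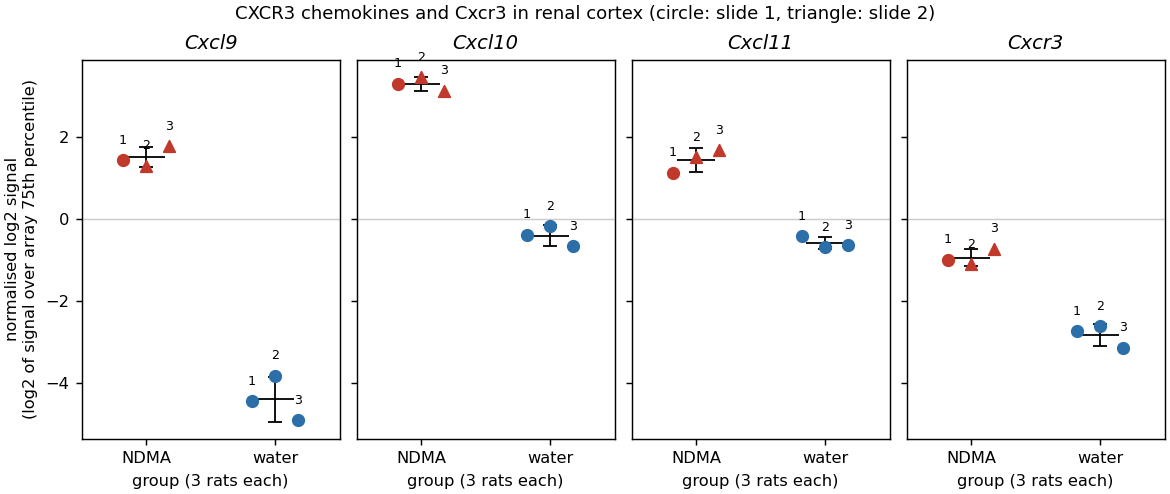
Normalised log2 signal (vertical axis) of Cxcl9, Cxcl10, Cxcl11 and Cxcr3 in 3 NDMA and 3 water rats; points are animals with their replicate number, circles slide 1, triangles slide 2, and bars the mean with SD. In each panel all NDMA rats lie above all water rats, with the widest gap for Cxcl9 (5.13).

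In all 4 genes the groups did not overlap and NDMA was higher, as in 11.1% of all features (27.6% did not overlap in either direction), and since the genes were chosen on this contrast nothing is read from that count. By the size of the log2 difference Cxcl9 ranked number 1 of 31915 features, Cxcl10 number 8, Cxcl11 number 128 and Cxcr3 number 158. The median log2 difference over all features was -0.045.

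The genes varied little among the NDMA rats. Relative to the water mean, Cxcl9 was 57.4-fold, 52.2-fold and 72.4-fold higher in NDMA rats 1, 2 and 3. Cxcl10 was 13.1-fold, 14.6-fold and 11.7-fold higher in the same rats. NDMA rat 3 therefore had the highest Cxcl9 and the lowest Cxcl10 of the NDMA group. Cxcl11 was 3.27-fold, 4.28-fold and 4.81-fold higher, and Cxcr3 was 3.58-fold, 3.30-fold and 4.32-fold higher, so that NDMA rat 3 was highest for both. These orders rest on 3 animals and on ranges of 0.32 to 0.56 on the log2 scale, similar to the range of 0.27 to 0.52 among water rats for the genes other than Cxcl9.

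**Figure D2:**
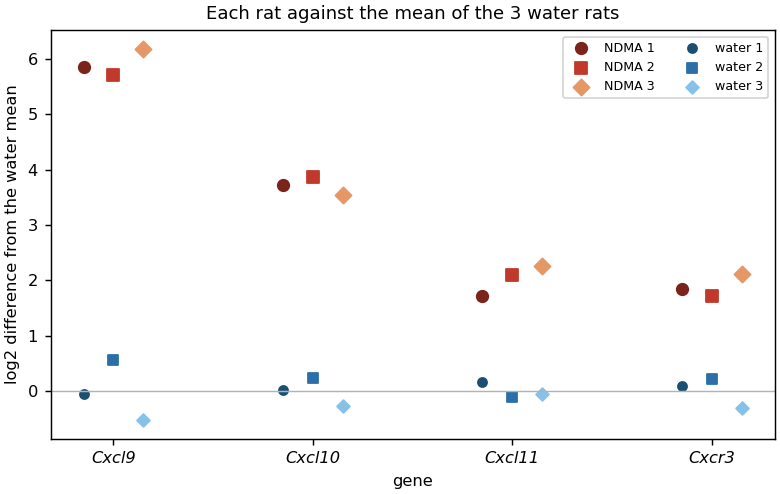
Log2 difference of each rat from the mean of the 3 water rats (vertical axis) for the 4 genes; large symbols are NDMA rats and small symbols water rats. NDMA rats span 5.71 to 6.18 for Cxcl9, 3.54 to 3.87 for Cxcl10, 1.71 to 2.27 for Cxcl11 and 1.72 to 2.11 for Cxcr3.

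The differences of the genes can be set against each other within each array, which cancels the array's scale. Cxcl9 gained 2.20 more than Cxcl10 on the log2 scale, with 2.13, 1.84 and 2.63 in NDMA rats 1 to 3. This gap was 0.83 with normexp, or 1.77-fold in place of 4.60-fold. Cxcl10 gained 1.68 more than Cxcl11, with 2.01, 1.77 and 1.28 in the 3 rats. Without normexp, each NDMA rat showed the order Cxcl9, Cxcl10, Cxcl11. Cxcl11 and Cxcr3 differed by only 0.13 in their gain, with -0.13, 0.37 and 0.16 in the 3 rats, so this pair was not separated beyond the spread between animals at that setting. With normexp the gap was 0.60, and on slide 1 alone it was -0.13. Between Cxcl9 and Cxcr3 the gap of 4.02, which was 3.15 with normexp, varied least among NDMA rats, with an SD of 0.044. Among water rats the SD for the same pair was 0.31, and each SD rests on 3 animals. All these gaps are differences in gain and not in abundance.

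The upstream sequences of the 4 genes are shown because the ligands moved together and are known interferon and NF-kappaB targets. Each sequence is the 250 bases before the RefSeq gene start in assembly GRCr8, read 5′ to 3′ on the gene's strand, and capitals mark matches to any of 4 motifs on either strand. The motifs were the interferon-stimulated response element (ISRE: GAAA, any 2 bases, GAAA), the gamma-activated site (GAS, TTCNNNGAA), an NF-kappaB-like motif (GGGA, any 4 bases, CC) and the TATA box (TATAAA).
Cxcl9, chr14:16006916-16007165, plus strand: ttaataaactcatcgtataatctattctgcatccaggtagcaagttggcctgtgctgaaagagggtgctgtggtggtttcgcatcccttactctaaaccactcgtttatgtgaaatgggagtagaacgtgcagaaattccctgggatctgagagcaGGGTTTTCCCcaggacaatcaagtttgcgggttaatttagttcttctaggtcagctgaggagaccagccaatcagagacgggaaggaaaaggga
Cxcl10, chr14:15988816-15989065, plus strand: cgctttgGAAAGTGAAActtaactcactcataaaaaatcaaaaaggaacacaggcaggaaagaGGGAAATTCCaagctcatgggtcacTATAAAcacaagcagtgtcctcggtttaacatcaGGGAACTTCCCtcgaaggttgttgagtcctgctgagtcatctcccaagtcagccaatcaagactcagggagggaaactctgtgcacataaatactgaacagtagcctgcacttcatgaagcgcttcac
Cxcl11, chr14:15973478-15973727, plus strand: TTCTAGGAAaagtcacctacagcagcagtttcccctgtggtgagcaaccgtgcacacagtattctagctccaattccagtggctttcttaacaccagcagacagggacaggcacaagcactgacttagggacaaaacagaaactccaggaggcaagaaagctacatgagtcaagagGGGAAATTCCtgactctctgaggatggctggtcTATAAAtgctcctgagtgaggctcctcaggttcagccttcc
Cxcr3, chrX:70886945-70887194, minus strand: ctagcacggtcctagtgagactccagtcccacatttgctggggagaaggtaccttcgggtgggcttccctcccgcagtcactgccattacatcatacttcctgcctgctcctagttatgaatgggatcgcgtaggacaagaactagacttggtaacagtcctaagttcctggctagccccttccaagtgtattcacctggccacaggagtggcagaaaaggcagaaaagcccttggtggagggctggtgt

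The 3 ligand windows each held an NF-kappaB-like match and the receptor window held no match to any of the 4 motifs. Such a match is present in 16.4% of the 33469 RefSeq gene starts searched. In Cxcl10 and in Cxcl11 the same bases, GGGAAATTCC, stood 187 to 178 and 74 to 65 bases before the start. Cxcl10 also held GGGAACTTCC at 128 to 119 bases, which overlaps the match GGAACTTCCC on the other strand. In Cxcl9 the match was GGGTTTTCCC at 94 to 85 bases, on the other strand. Of the 4 windows, that of Cxcl10 alone had an ISRE match, GAAAGTGAAA at 243 to 234 bases, a motif found in 3.41% of all windows. Together with an NF-kappaB-like match it is found in 0.436%. A GAS match, TTCTAGGAA, lay at the far end of the Cxcl11 window and is of a kind held by 7.67% of windows. A TATA box match was present in Cxcl10 at 162 to 157 bases and in Cxcl11 at 41 to 36 bases, against 12.9% of windows. A match is only a string of letters, and no binding was measured.

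The 3 ligand genes lie side by side on chromosome 14 in the order Cxcl11, Cxcl10, Cxcl9, with no other annotated protein-coding gene between them, and their log2 differences run 2.02, 3.71 and 5.91 in that order. The 8 protein-coding genes on each side were taken as neighbours, and 10 of these 16 were measured. Among them 0 rose and 0 fell in limma's test (adjusted p under 0.05 over all 31915 features), against 2.52% higher and 0.476% lower over all features. For 10 genes a count of 0 is near these shares. Of the 10, 3 had an unadjusted p under 0.05, against 18.8% of all features. Their median log2 difference was 0.082, with a range of -0.082 to 1.00. Art3, an ADP-ribosyltransferase family gene next to Cxcl11, differed by 0.34 ± 0.17 (SE, adjusted p = 0.335). Sdad1, next to Cxcl9, differed by 0.26 ± 0.09 (adjusted p = 0.201). Naaa, which encodes a lysosomal amidase of fatty acid ethanolamides and is the second gene beyond Cxcl9, came closest to the threshold. It gave -2.26, -1.55 and -1.71 in NDMA rats 1 to 3, against -2.83, -2.68 and -3.02 in water rats 1 to 3, a difference of 1.00 ± 0.20 (adjusted p = 0.0587).

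**Figure D3:**
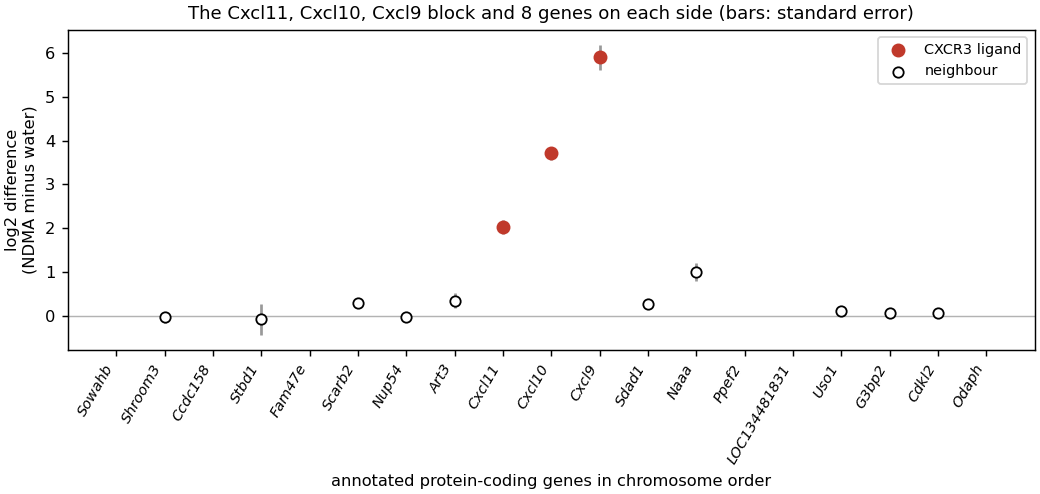
Log2 difference, NDMA minus water, with its standard error (vertical axis) for the protein-coding genes around the ligand block in chromosome order; filled points are Cxcl11, Cxcl10 and Cxcl9, open points are measured neighbours, and names without a point have no value. The 3 ligands reach 2.02 to 5.91, while the neighbours stay between -0.082 and 1.00.

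Genes of the route that induces the ligands moved unequally. Of 20 measured genes of interferon gamma and tumour necrosis factor signalling, 5 rose and 0 fell, against 2.52% higher and 0.476% lower over all features. With the slide as a block 0 passed in limma. The median log2 difference over the 20 genes was 0.30. Those that rose included Ifng, Irf1, Irf8 and Stat2. Ifng, the gene of interferon gamma itself, had -5.08, -5.14 and -5.22 in NDMA rats 1 to 3, against -7.42, -8.22 and -8.09 in water rats 1 to 3. Its probe was well above background on the 3 NDMA arrays and on none of the water arrays, so the water values are only a bound, and it was at least 1.94-fold higher (fitted adjusted p = 0.00582, limma). The bound sets the NDMA mean against the higher, on each water array, of the lowest signal that counted as well above background and the probe's own signal. With normexp the fitted difference was 0.49 (adjusted p = 0.0148, limma). Ifng entered the test only through the NDMA rats. With only probes well above background on all 6 arrays it dropped out, and 4 of 19 genes of the list rose.

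Irf1, the transcription factor that binds ISREs, stood far apart between groups. It had 3.95, 4.12 and 4.34 in NDMA rats 1 to 3, against 2.07, 2.28 and 1.74 in water rats 1 to 3. It rose 4.31-fold (2.11 ± 0.17 SE, adjusted p = 0.00607). Irf8, a lineage factor of myeloid cells that is also interferon-inducible, rose 2.21-fold (adjusted p = 0.00743), and Stat2, of the type I interferon complex, 1.45-fold (adjusted p = 0.0308). With normexp the Irf8 difference was 0.63, against 1.14 without it. The Stat2 call was lost in 5 of the 6 fits without 1 rat (all but that without NDMA rat 1), without the filter on dim probes (adjusted p = 0.0938) and with the mean of its probes (adjusted p = 0.0690).

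The receptor and kinase genes of the same route did not pass. Ifngr1 and Ifngr2, the chains of the interferon gamma receptor, differed by 0.20 ± 0.13 and 0.20 ± 0.10 (adjusted p = 0.462 and 0.340). Jak1 and Jak2, the kinases bound to it, differed by 0.13 ± 0.09 and 0.29 ± 0.09 (adjusted p = 0.479 and 0.156). The feedback inhibitor Socs1 had -3.39, -3.89 and -4.44 in NDMA rats 1 to 3, against -5.12, -5.17 and -4.73 in water rats 1 to 3. The groups did not overlap, but the 2.14-fold difference did not pass (log2 SE 0.27, adjusted p = 0.108). Tnf differed by 0.86 ± 0.33 (adjusted p = 0.236), and no probe was matched to Nfkb1. The probe of Ifnb1, the gene of interferon beta, was below that detection limit on all 6 arrays.

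Of 10 measured genes that promote interferon gamma production by lymphocytes, 2 rose and 0 fell (median difference 0.078), against 2.52% higher over all features. With the slide as a block, and without NDMA rat 3, 0 passed in limma. The 2 were Il18, a cytokine that acts on T and natural killer cells (1.90-fold, 0.92 ± 0.11, adjusted p = 0.0129), and Il2rb, a receptor chain for interleukins of those cells (1.74-fold, 0.80 ± 0.09, adjusted p = 0.0117). The lineage factor genes Stat4 and Tbx21 gave 0.76 ± 0.20 (adjusted p = 0.129) and -0.23 ± 0.08 (adjusted p = 0.221). Of the 2 Tbx21 probes only 1 passed the detection filter. That probe was bright on every array, with 5.79, 5.68 and 5.84 in NDMA rats 1 to 3, against 5.94, 6.03 and 6.03 in water rats 1 to 3. Whether it reads Tbx21 alone was not tested, so its value is not taken as a measure of Tbx21. Il12rb1, a receptor chain for interleukin-12, was not well above background in any water rat and did not pass (adjusted p = 0.125).

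T cell genes, whose products mark the main cells that carry CXCR3, were higher alongside Cxcr3. Among the 18 that were measured, 11 rose and 0 fell, against 2.52% higher and 0.476% lower over all features, and the median log2 difference was 1.30. With normexp the median was 0.81 and 12 rose, and without the filter on dim probes 7 of 19 rose. With the slide as a block the median was 1.24 and 0 passed in limma. Cd3g, a chain of the T cell receptor complex, had 0.27, 0.58 and 0.69 in NDMA rats 1 to 3, against -1.72, -1.37 and -2.14 in water rats 1 to 3. It rose 4.79-fold (2.26 ± 0.21, adjusted p = 0.00742). Its partners Cd247, Cd3e and Cd3d rose 3.89-fold, 5.69-fold and 2.44-fold, where Cd3e was well above background in only 2 of 3 water rats, and the costimulatory receptor Icos rose 2.43-fold (adjusted p = 0.00582). The Cd3e call was lost without NDMA rat 2, NDMA rat 3 or water rat 1, and its log2 difference of 2.51 was 1.05 with normexp. The chemokine receptor gene Cxcr6 differed by 1.13 ± 0.25 without passing (adjusted p = 0.0773). The coreceptor Cd4 rose 1.59-fold (adjusted p = 0.0430), whereas Cd8a and Cd8b differed by 0.93 ± 0.24 and 1.01 ± 0.26 and did not pass (adjusted p = 0.115 and 0.117). The difference between the Cd4 and Cd8 results was not tested.

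Natural killer and cytotoxic genes, whose cells can also carry CXCR3, gave no call in limma. Among 9 measured genes 0 rose and 0 fell, against 2.52% higher and 0.476% lower over all features. For 9 genes a count of 0 is near these shares. Of the 9, 3 had an unadjusted p under 0.05, as had 18.8% of all features. These 3, Klrd1, Klrb1a and Prf1, had lower values in NDMA rats. The median was -0.095 and the range -0.58 to 0.25. Gzmb differed by 0.25 ± 0.14 (adjusted p = 0.377) and Prf1, the perforin gene, by -0.48 ± 0.15 (adjusted p = 0.164). The probe of Ncr1, a receptor that defines natural killer cells, was not detected above background in any rat.

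**Figure D4:**
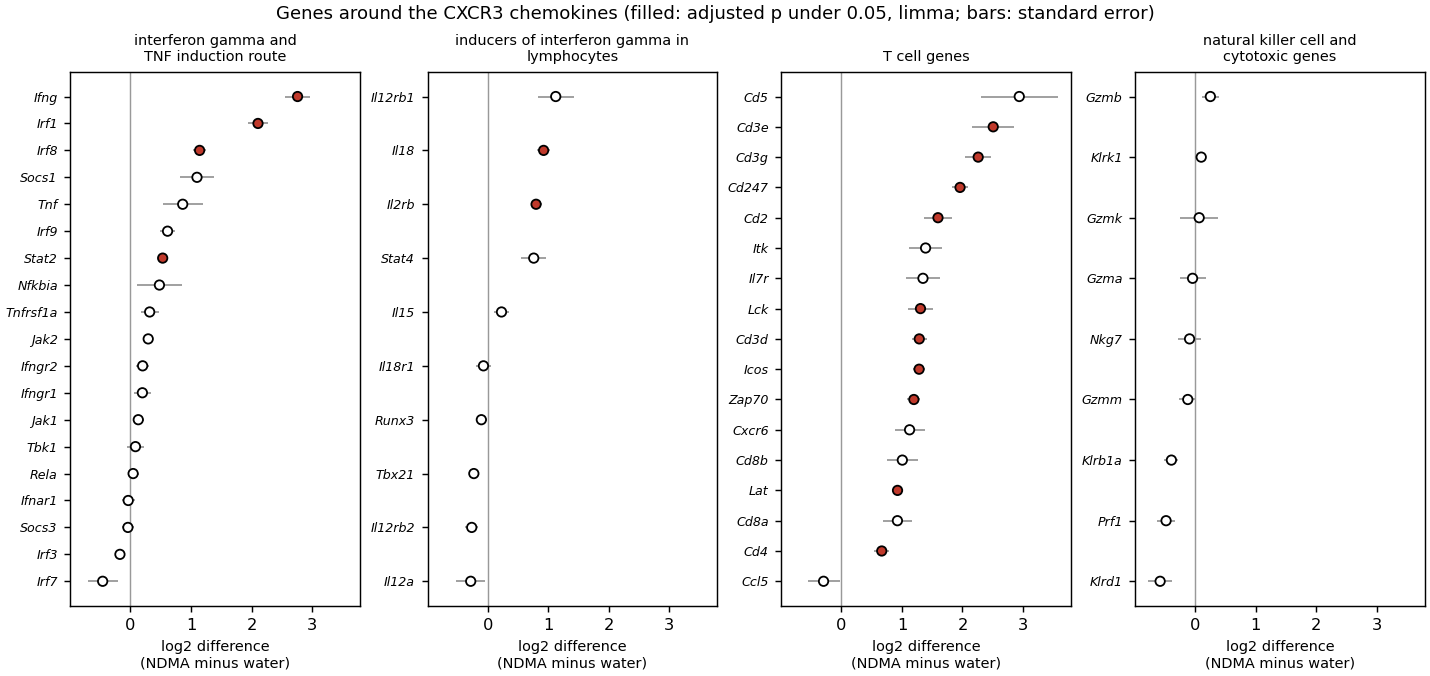
Log2 difference, NDMA minus water, with its standard error (horizontal axis) for the measured genes of 4 lists that are reported here, sorted by size; filled points passed limma's test at an adjusted p under 0.05. Filled points number 4 of 19, 2 of 10, 10 of 17 and 0 of 9 from left to right.

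Markers of some other cell types were higher too, and those of others were lower or gave no call. Over all features 2.52% were called higher and 0.476% lower, and 41.3% had a log2 difference above 0. For lists of so few genes a count of 0 calls is near these shares. The T cell markers, 8 of 8 measured and 7 higher, are all among the T cell genes reported above. Their summed linear signal was 5.47 to 6.43 in NDMA rats and 1.76 to 2.39 in water rats. That of macrophage markers, 8 of 9 measured and 6 higher, was 45.2 to 54.4 in NDMA rats and 17.5 to 22.0 in water rats. Of 3 measured dendritic cell markers 2, Clec9a and Xcr1, were higher, and the sum was 0.581 to 0.813 in NDMA rats and 0.172 to 0.264 in water rats. Xcr1 was well above background in no water rat, so it entered only through the NDMA rats (at least 2.41-fold higher). Endothelial markers, 6 of 7 measured and 0 called, summed to 28.4 to 36.0 in NDMA rats and 33.3 to 38.1 in water rats. Natural killer markers, 3 of 4 measured and 0 called, summed to 1.04 to 1.40 in NDMA rats and 1.18 to 1.68 in water rats. Of 4 measured mast cell markers 2, Cma1 and Mcpt1, were higher, with sums of 0.435 to 1.04 in NDMA rats and 0.294 to 0.357 in water rats. Cma1 was well above background in no water rat, so it entered only through the NDMA rats (at least 4.26-fold higher). Mcpt1 was well above background in 2 of 3 water rats (adjusted p = 0.0495, limma). Most of the water sum came from Kit, which was not called. No marker was called among 2 measured B and plasma cell markers and 3 measured neutrophil markers. Proximal tubule markers, 8 of 8 measured with 1 lower, summed to 1026 to 1192 in NDMA rats and 1353 to 1429 in water rats. Collecting duct markers, 5 of 5 measured and 0 called, summed to 114 to 146 in NDMA rats and 160.0 to 193 in water rats, and 5 of 5 had a difference below 0. Injured tubule markers, 4 of 5 measured and 0 called, summed to 28.0 to 72.5 in NDMA rats and 24.7 to 35.0 in water rats. NDMA rat 2 had the highest Havcr1, Lcn2 and Spp1 and the lowest Clu of the NDMA rats. Havcr1, a kidney injury marker, was -0.85 there, against -4.33 and -4.14 in NDMA rats 1 and 3. Spp1, which gave most of the sum in NDMA rat 2, was 5.96 there, against 3.81 and 4.04. Clu went the other way, with 3.15 there, against 4.05 and 3.49. Which cells carried the chemokine transcripts was not measured, and the part of these cell types in the results was not tested.

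CXCR3 signals through inhibitory G proteins, arrestins and regulators of the actin cytoskeleton. Of 14 measured genes of that machinery 3 rose and 0 fell (median difference 0.11), against 2.52% higher over all features. Without 1 rat 1 to 2 passed, and with the slide as a block 0 passed in limma. The 3 were Coro1a, an actin-binding protein of leukocytes (2.59-fold, 1.37 ± 0.11, adjusted p = 0.00652), Rac2, a GTPase of blood cells (2.31-fold, 1.21 ± 0.13, adjusted p = 0.0114), and Arrb2, an arrestin that desensitises chemokine receptors (1.37-fold, 0.45 ± 0.08, adjusted p = 0.0434). The calls of Arrb2 and Cd4 were lost in each of the 6 fits without 1 animal. The G protein genes, which most cells express, were among the 11 that did not pass, such as Gnai2 at 0.12 ± 0.10 (adjusted p = 0.521).

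Other proteins that bind or cut the ligands gave no call in limma (0 of 5 measured in either direction). Over all features 2.52% were called higher and 0.476% lower, so for 5 genes a count of 0 is near these shares. Of the 5, 1 had an unadjusted p under 0.05, against 18.8% of all features. Ackr3, an atypical receptor that takes up CXCL11, differed by -0.09 ± 0.22 (adjusted p = 0.861). Dpp4, the surface peptidase that truncates CXCR3 ligands, differed by -0.23 ± 0.13 (adjusted p = 0.401), and 2 of its 3 probes had that sign. Pf4, a platelet chemokine reported to bind human CXCR3, had 0.21, 0.59 and 0.42 in NDMA rats 1 to 3, against 0.007, -0.14 and -0.26 in water rats 1 to 3, a difference of 0.53 ± 0.13 (adjusted p = 0.0974).

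Of 9 other measured CXC and CX3C chemokine and receptor genes 0 passed in either direction in limma, with a median of -0.031. Over all features 2.52% were called higher and 0.476% lower, so for 9 genes a count of 0 is near these shares. Of the 9, 3 had an unadjusted p under 0.05, against 18.8% of all features. Cxcl12, the ligand of CXCR4, had 3.73, 3.68 and 3.86 in NDMA rats 1 to 3, against 4.48, 4.53 and 4.00 in water rats 1 to 3. It differed by -0.58 ± 0.16 (adjusted p = 0.129), and its receptor gene Cxcr4 by 0.83 ± 0.16 (adjusted p = 0.0536). Cxcl16, the ligand of CXCR6, differed by -0.05 ± 0.10 (adjusted p = 0.807). Cxcl1, a neutrophil chemokine, differed by 1.48 ± 0.42 (adjusted p = 0.144). Another 5 listed genes, Cxcl2, Cxcl6, Cxcr1, Cxcr2 and Cxcr5, did not pass the detection filter.

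The genes whose signal ran most like each member were found by Pearson's r over the 6 arrays among 12156 genes with a symbol, as a description that mostly reflects the separation of the groups, since 320 genes had r above 0.95 with Cxcl9. For Cxcl9 they were RT1-CE13 (r = 0.999), Dennd1c (0.999), Zap70 (0.997), RT1-A1 (0.997) and the complement gene C2 (0.997). For Cxcl10 they were Cd247 (0.996), Krt75 (0.995), Pimreg (0.995), Cd27 (0.994) and Gbp5 (0.994). For Cxcl11 they were RT1-CE12 (0.997), Dok2 (0.997), Il18bp (0.996), RT1-CE4 (0.995) and RT1-M6-1 (0.995). For Cxcr3 they were Sting1 (0.998), C2 (0.996), Irf1 (0.996), Snx20 (0.995) and Dennd1c (0.995). The RT1 genes are class I genes of the rat major histocompatibility complex with near-identical relatives, so their probes may read more than 1 gene. The size of the difference is not part of this measure: RT1-CE13 differed by 1.15, against 5.91 for Cxcl9, and Krt75 by 0.69, against 3.71 for Cxcl10.

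Because 2 of the 3 NDMA rats were on slide 2, the members were also compared with slide as a block, which rests on NDMA rat 1. The log2 differences were then 5.84 for Cxcl9, 3.72 for Cxcl10, 1.71 for Cxcl11 and 1.84 for Cxcr3. All 19 genes taken by the naming rule that passed kept their direction with the slide as a block and none passed, with adjusted p between 0.0536 and 0.306. Irf1 then differed by 1.92 (adjusted p = 0.0749), Ifng by 2.83 as fitted (0.0658) and Cd3g by 2.01 (0.0940). Without slide 2 the design has 1 NDMA rat against 3 water rats.

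**Figure D5:**
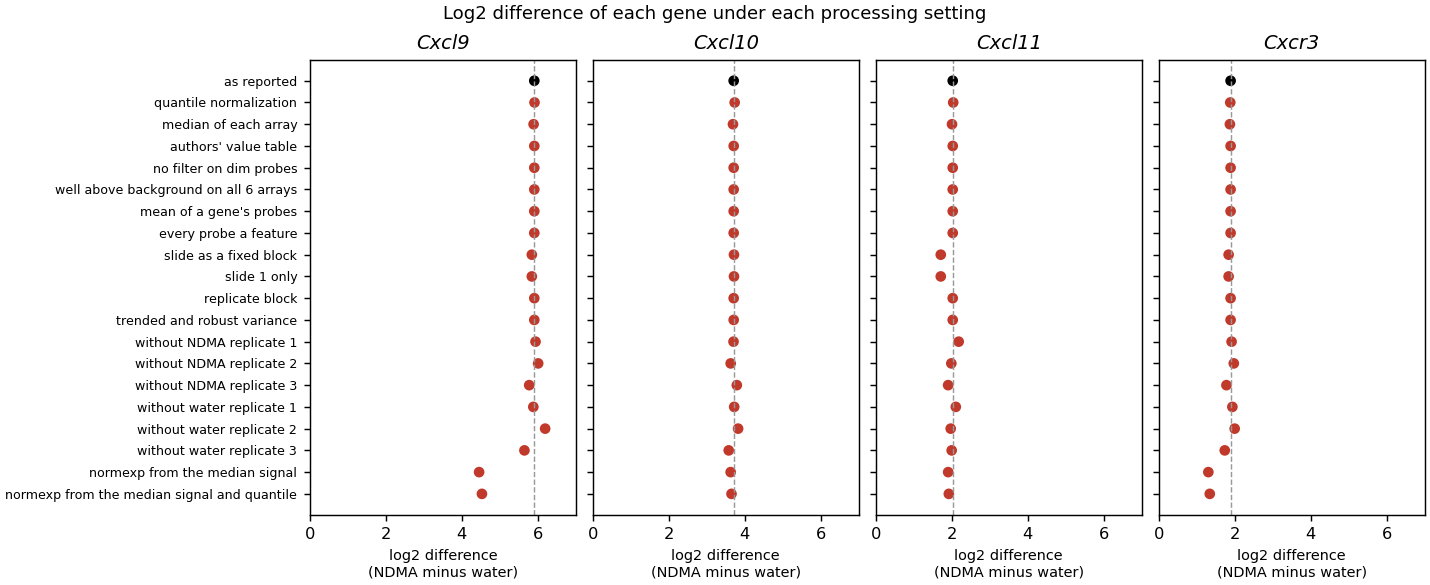
Log2 difference, NDMA minus water (horizontal axis), of each of the 4 genes under each processing setting; black is the value as reported and the dashed line repeats it. All points are above 0; the normexp settings lower Cxcl9 to 4.46 and 4.53 and Cxcr3 to 1.31 and 1.34, and the slide settings lower Cxcl11 to 1.71.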

How the data were processed

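Cy3-labelled total RNA from renal cortex was read on 1-colour Agilent arrays. The authors read spots with Feature Extraction (10.7.1.1 per the file headers). In the deposited files the processed intensity is background-subtracted and spatially detrended within each array, and the median intensity and background are unscaled, per the file headers. The values the authors deposited as a table are a linear ratio, which matched the processed intensity over the array's 75th percentile (largest log2 difference 0.00174 for ratios above 0.1).

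Here, log2 of the processed intensity was centred on the 75th percentile of its array, taken over 61657 non-control probes. Flagged outlier spots (18 values among kept probes) were set missing. Probes well above background on all 3 arrays of a group were kept (43118), and each gene was read by its brightest probe. Names came from the RefSeq table of GRCr8 by unversioned accession (27460 probes). The array annotation names build rn4, so only the promoter table's own GRCr8 positions are printed. NDMA was set against water in limma 3.58.1 (R 4.3.3; lmFit and eBayes, two-sided), with p adjusted by Benjamini-Hochberg over 31915 features, and the fit was tested on simulated data. An exact permutation test of 3 against 3 cannot go below p = 0.1. The number of arrays limits the precision.

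The 4 genes and all lists were chosen with earlier results of these data known. Named genes were the 4 members, a fixed set of 26 measured genes of the lists, up to 6 called members of each list by smallest p, all measured neighbours, and for each member the 5 genes of highest r (symbols beginning LOC or RGD left out). Gzmb, Prf1, Klrd1, Klrb1a, Ncr1, Cxcl1, Gnai2 and Ifnb1, and the genes below the detection filter, were named after their values were seen. So were the cell type markers Havcr1, Lcn2, Spp1, Clu, Cma1, Kit, Clec9a and Xcr1. A few genes counted in the lists are not reported here by name.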

Additional observations from a re-analysis of the deposited data

How the results depend on the processing

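Over the settings tried, the log2 differences of Cxcl9, Cxcl10, Cxcl11 and Cxcr3 stayed above 0. Leaving out 1 rat at a time gave 5.65 to 6.19, 3.58 to 3.82, 1.90 to 2.18 and 1.74 to 2.00. With normexp on the median signal, chosen after seeing the data because the files hold no mean signal for the planned version, which was not run, Cxcl9 moved to 4.46 and Cxcr3 to 1.31, and with quantile scaling added to 4.53 and 1.34. With the slide as a block or on slide 1 alone Cxcl11 moved to 1.71.

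Over all features 957 passed (84.1% higher). The count was 371 with no filter on dim probes, in which 45877 features were tested and 94.6% of calls were higher, 67 with the slide as a block, and 0 in limma on slide 1 alone, where 3502 had an unadjusted p under 0.05. It was 364 to 749 without 1 rat: 749, 458 and 367 without NDMA rats 1, 2 and 3, and 364, 520 and 505 without water rats 1, 2 and 3. With the replicate number as a block it was 351 (96.0% higher), and 9 of the 19 calls of named genes were lost. Deviations of same-numbered rats correlated at 0.039, -0.048 and 0.026. With 3 rats per group, and NDMA rats 2 and 3 on another slide, these values cannot exclude a pairing by number. Why the count fell with that block was not tested. With normexp it was 1091 (66.7% higher) and with a trended and robust variance 1234. Of the 19 called named genes, 10 kept their call in each of the 6 fits without 1 rat. They were Ifng, Irf1, Irf8, Cd3g, Cd3d, Cd247, Icos, Zap70, Lat and Coro1a, of which Ifng entered the test only through the NDMA rats. Il18 lost its call without NDMA rat 2, NDMA rat 3 or water rat 1, and Il2rb and Rac2 lost theirs without NDMA rat 3. Without 1 rat, 6 to 12 T cell genes and 3 to 5 induction route genes were higher, against 11 and 5 with all rats, and 1 to 2 CXCR3 signalling genes and 0 to 3 inducers of interferon gamma, against 3 and 2. Of the 19 calls, 17, 13 and 10 were kept without NDMA rats 1, 2 and 3, and 13, 16 and 15 without water rats 1, 2 and 3. The dim water signals of Cxcl9, and those of Ifng below the detection limit, limit how precisely their folds can be known.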

Other observations

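Of the other features with a gene symbol, 5 had the largest log2 differences. Acod1, which makes itaconate in macrophages, was at least 4.81-fold higher (fitted log2 difference 4.41, adjusted p = 0.00244, limma). It was not well above background in any water rat. Mcpt1, a mast cell protease, had -0.90, -3.48 and -1.08 in NDMA rats 1 to 3, against -6.20, -5.09 and -5.53 in water rats 1 to 3 (adjusted p = 0.0495, limma), and was well above background in 2 of 3 water rats. Fam111a, Fcrl2 and Ubd differed by 3.84, 3.40 and 3.32 and did not pass (adjusted p = 0.205, 0.124 and 0.326, limma). In each of these 3 genes a single NDMA rat stood far above the others, rat 2 for Fam111a and Ubd and rat 3 for Fcrl2.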
